A study of Arabidopsis thaliana with 51 samples.

Results

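The genes described here loosen, remodel or build the plant primary cell wall, or carry the family names of genes that do so. They were chosen by symbol: every probe set annotated to exactly 1 gene whose name begins with XTH, EXPA, EXPB, EXLA, EXLB, CESA, CSL, TBL, FLA or PME and a number or letter code. The annotation named 57 such genes, and 41 of them reached a log2 signal of 5 on at least 3 arrays. These 41 were the members, each read by 1 probe set, among 14568 probe sets tested in all. They comprised 17 TBL, 8 XTH, 6 EXPA, 5 CSL, 2 EXPB, 2 EXLA and 1 EXLB genes, and no CESA, FLA or PME gene. The families are only partly covered, since RefSeq (TAIR10.1) lists 30 XTH, 23 EXPA and 41 TBL symbols. It also lists 7 CESA and 19 FLA symbols, of which the annotation named 0, so these families could not be read. The 1 PME gene named did not pass the level filter.

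Transcript levels of whole Arabidopsis thaliana seedlings were measured on 51 ATH1 arrays, as 17 groups of 3 biological replicates. Seedlings were raised on agar and then in liquid medium, and were given 1 µM elf18 or 1 µM Pep2. Each of the 5 lines had an untreated 0 h group. For wild type, either peptide was followed for 2 h or 10 h. The ethylene-insensitive ein2-1 mutant had both elf18 times but, for Pep2, the 2 h time alone. From the elf18 receptor mutant efr-1 the only treated group was 10 h of elf18. Treated groups of pepr1-1 pepr2-3, which lacks the paired Pep receptors, and of bak1-3, a mutant of the co-receptor BAK1, received Pep2 for 2 h or 10 h. No untreated group was taken at 2 h or 10 h, so each response from 0 h also contains the time elapsed. Related co-receptors of the BAK1 family remain in bak1-3.

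A growing plant cell is held by cellulose microfibrils embedded in xyloglucan, other hemicelluloses and pectin. Expansins (EXPA and EXPB) loosen the contacts between these polymers without cutting them, and XTH enzymes cut and rejoin xyloglucan chains. CSLC proteins make the xyloglucan backbone, CSLA proteins make mannans, and CSLD proteins act in the walls of tip-growing cells. TBL proteins include the enzymes that acetylate xylan, mannan and xyloglucan, although many have no assigned substrate. Elf18 is a fragment of the bacterial elongation factor EF-Tu that EFR recognises, and Pep2 is a plant peptide that PEPR1 and PEPR2 recognise. Both set off pattern-triggered immunity, during which seedling growth is known to slow.

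Values are deposited log2 signals, on which a difference of 1 is a 2-fold change. The lowest value on every array was 2.08, and 27.4% of all values lay within 0.1 of it. A change was called at an adjusted p under 0.05 (limma, Benjamini-Hochberg over all 14568 probe sets) together with at least a 2-fold difference. The median SD of a member within a group was 0.19, with a largest SD of 1.30. Array medians ran from 6.04 to 6.16, and the lowest correlation between arrays of a group was 0.98. Replicate 1 of ein2 at 10 h of elf18 stood widest from its group, with a residual SD of 0.32 on the log2 scale. In the 6 arrays of efr the EFR probe set read 2.16 to 2.29, below the 2.80 to 7.16 of the 45 other arrays. The genes mutated in the other lines were not checked here.

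In untreated wild type the members ranged over most of the array's scale. XTH32, one of the XTH enzymes with a predicted preference for cutting over rejoining, read 10.91 ± 0.15 (SD, n = 3), and XTH19 read 10.45 ± 0.19. TBL37 and TBL25, the latter a mannan acetyltransferase, followed at 10.18 ± 0.28 and 9.73 ± 0.29. At the other end, EXLA3 read 2.90 ± 0.01 and TBL15 read 2.096 ± 0.024, at or near the lowest value. Signals of different probe sets depend on the probes as well as on the transcript, so this order describes the array rather than the amounts of RNA. Of the 41 members, 23 stayed at 5 or above on all arrays and 18 did not. Just inside the limit, XTH21 reached 5 on 5 arrays and TBL15 on 6, while XTH29 and TBL21 reached it on 1 array each and were left out.

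EXLA1 belongs to the expansin-like A family, whose members share the expansin fold. Its log2 signal in untreated wild type was 8.81, 8.51 and 9.36, and at 2 h of elf18 it was 5.49, 5.31 and 5.43. At 10 h of elf18 it read 7.16, 6.81 and 6.57. The 3 groups did not overlap, with the lowest values at 2 h. The fall of 3.48 at 2 h (SE 0.29, adjusted p = 6e-13) was the largest of any member in wild type given elf18 for 2 h, and the level rose by 1.44 from 2 h to 10 h. Under Pep2 it read 7.10, 7.48 and 7.11 at 2 h and 7.92, 7.18 and 6.91 at 10 h, again all below the untreated arrays. In efr at 10 h of elf18 the 3 arrays read 9.68, 9.19 and 8.29, which overlaps the untreated efr values of 9.04, 8.43 and 8.76.

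TBL36, a TBL protein without a substrate assigned here, was the member that fell most in wild type after Pep2, at either time. It read 8.89, 8.95 and 9.07 in untreated wild type, 5.32, 4.94 and 5.72 at 2 h of Pep2, and 5.24, 5.28 and 5.52 at 10 h of Pep2. All Pep2 arrays lay below all untreated ones, and the falls were 3.65 (SE 0.23, adjusted p = 1.1e-16) and 3.63. With elf18 it read 8.57, 8.43 and 8.80 at 2 h and 7.98, 7.52 and 7.84 at 10 h. Only the 10 h fall of 1.19 was called for elf18. In pepr1-1 pepr2-3 given Pep2 for 2 h the gene read 8.88, 8.24 and 9.05, which overlaps the 8.83, 8.79 and 8.98 of that line untreated.

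XTH21, an enzyme with a known role in root growth, had low signals throughout. Untreated wild type read 4.76, 5.10 and 5.31. Elf18 arrays read 3.71, 4.06 and 3.35 at 2 h and 2.32, 2.08 and 2.48 at 10 h, while Pep2 arrays read 2.08, 2.08 and 2.26 at 2 h. After 10 h of Pep2 they read 2.08, 2.14 and 2.08. The untreated group lay above all 4 treated groups. XTH21 passed the level filter through untreated arrays alone, 2 of wild type and 3 of ein2, so lower treated values in these lines follow in part from the filter. Since 4 of the 6 Pep2 arrays were at the array's lowest value of 2.08, the Pep2 falls of 2.91 and 2.96 are limited by that value.

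EXPA15, an alpha-expansin, read 7.40, 7.46 and 7.78 in untreated wild type. At 2 h it read 6.87, 6.06 and 6.61 with elf18 and 5.61, 6.01 and 5.49 with Pep2, both sets below the untreated arrays. At 10 h it had come back to 7.24, 6.80 and 7.04 with elf18 and 7.12, 6.81 and 7.00 with Pep2, and neither 10 h change was called. Both 2 h falls were called, at 1.03 with elf18 and 1.84 with Pep2.

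**Figure D1:**
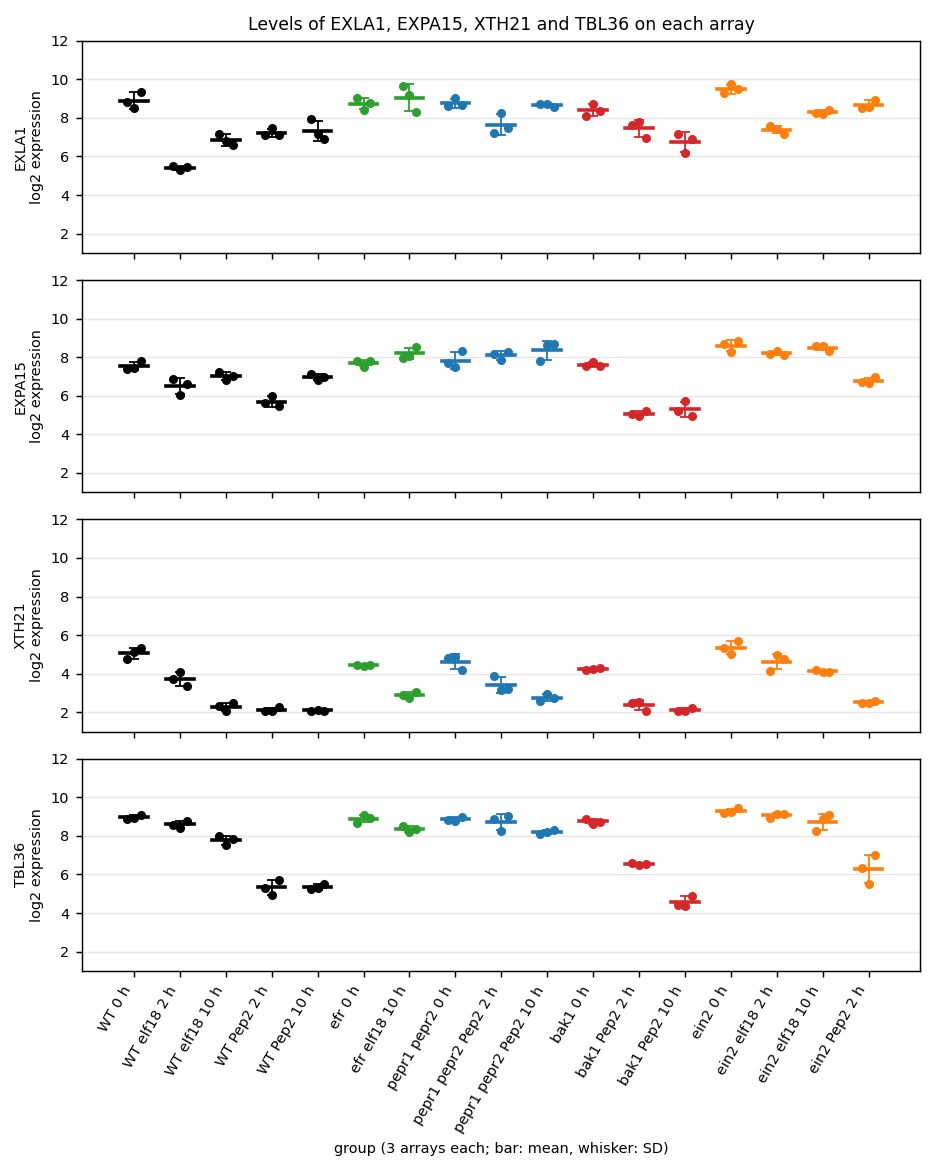
Log2 expression (vertical axis) of EXLA1, EXPA15, XTH21 and TBL36 on each of the 51 arrays, by group (horizontal axis), with 3 arrays a group, bars for means and whiskers for SD. EXLA1 is lowest in wild type at 2 h of elf18, between 5.31 and 5.49, while TBL36 is low in the Pep2 groups of every line shown except pepr1-1 pepr2-3.

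With elf18 in wild type most called wall genes fell. At 2 h 10 of 41 members were lower and 0 were higher, where 6.34% of all probe sets were lower and 8.16% were higher. With the unadjusted p of limma alone, 25 members were under 0.05 in either direction. The matching share of all probe sets is not given here, so nothing is read from that count. At 10 h 11 members were lower and 3 were higher, against 13.5% and 13.4% of all probe sets. The median change of the 41 members was -0.40 at 2 h and -0.67 at 10 h, where the median of all probe sets was -0.04 and -0.05. In bulk seedlings, fewer cells of a type and less RNA per cell cannot be told apart.

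Among the wall-loosening members, elf18 lowered EXLA1, EXPB1, EXPA15, XTH19, XTH21 and XTH32 at 2 h, with falls of 3.48, 1.61, 1.03, 1.50, 1.35 and 1.01. XTH19, which together with XTH20 is known for its part in rejoining cut stems, read 10.34, 10.67 and 10.34 untreated. After 2 h of elf18 it read 8.75, 9.00 and 9.09, and after 10 h 7.30, 7.12 and 7.15. The 3 groups of XTH19 were fully separate and each later one was lower. Its 10 h fall of 3.26 (SE 0.21, adjusted p = 1.4e-16) was the largest of any member in that comparison. XTH32 fell by 2.52, the alpha-expansin EXPA8 by 2.53, the beta-expansin EXPB1 by 2.05 and XTH16 by 1.95 at 10 h. EXPA8 read 4.97, 5.47 and 4.59 untreated and 2.74, 2.17 and 2.54 at 10 h, close to the lowest value of the array. It reached 5 on 10 arrays, all from 0 h or 2 h groups. Its falls from 0 h to 10 h, in any line, therefore follow in part from the level filter.

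Among the TBL members, TBL25, TBL26, TBL37 and TBL45 were lower at 2 h of elf18, by 1.03, 1.39, 1.49 and 1.07. TBL25 and TBL26 are mannan acetyltransferases. The TBL26 call at 2 h was lost without replicate 3 of that group, at a change of -1.12 and an adjusted p of 0.074 in limma. At 10 h TBL25, TBL26, TBL36 and TBL37 were lower and TBL15 and TBL18 were higher. TBL15 read 2.12, 2.08 and 2.08 untreated and 2.12, 2.58 and 2.31 at 2 h, and then 5.82, 5.55 and 6.06 at 10 h of elf18. The 10 h arrays stood apart from all others of wild type, with a rise of 3.72 (SE 0.29, adjusted p = 5e-14). TBL15 entered the group of members through the 10 h elf18 arrays of wild type and ein2 alone, so its place among the called genes follows in part from the level filter.

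The expansin-like B gene EXLB1 rose at 10 h of elf18, where EXPA8, EXPB1 and EXLA1 fell and the other 7 expansin and expansin-like members were not called. It read 5.18, 4.70 and 4.16 untreated, 4.49, 5.38 and 5.03 at 2 h of elf18, and 7.34, 8.03 and 7.66 at 10 h of elf18. The 2 h arrays overlapped the untreated ones and the 10 h arrays lay above both. The rise at 10 h was 2.99. EXLB1 reached 5 on 23 arrays, most of them from 10 h groups. Its rises to 10 h, in any line and with either peptide, therefore follow in part from the level filter. None of the 5 CSL members, which make wall polysaccharide backbones, was called with elf18 at either time. Their median change was -0.26 at 2 h and -0.14 at 10 h.

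With Pep2 in wild type most called wall genes fell too, while XTH20, XTH18 and EXLA3 rose at 2 h. At 2 h 18 members were lower and 4 were higher, against 10% and 11% of all probe sets. At 10 h 13 were lower and 3 were higher, against 8.85% and 8.57%. The median change of the members was -0.60 at 2 h and -0.43 at 10 h, where the median of all probe sets was -0.11 and 0.00. These responses share their untreated arrays with the elf18 responses.

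XTH20 read 5.94, 6.97 and 5.85 untreated, 8.94, 9.29 and 9.00 at 2 h of Pep2 and 8.79, 8.32 and 7.96 at 10 h. Every Pep2 array lay above every untreated one, and the 2 h rise of 2.82 (SE 0.31, adjusted p = 5.4e-10) was the largest of any member at that time. XTH18, whose gene lies beside that of XTH19 with no coding gene between them, read 8.84, 8.80 and 8.78 untreated, 11.21, 10.37 and 10.60 at 2 h and 7.58, 7.26 and 7.32 at 10 h. It was thus above the untreated arrays at 2 h and below them at 10 h, by 1.92 and -1.42. Its neighbour XTH19 was lower at both times, by 1.26 and 2.78.

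The expansin-like pair EXLA1 and EXLA3 are also adjacent genes, and they moved in opposite directions at 2 h of Pep2. EXLA3 read 2.91, 2.90 and 2.90 untreated, 5.34, 6.00 and 5.36 at 2 h, and 3.41, 3.74 and 4.01 at 10 h. All treated arrays were above the untreated ones, with a 2 h difference of 2.66 that was called, while EXLA1 fell by 1.66. The 8 arrays that carried EXLA3 past the level filter were all from 2 h of Pep2, in wild type, ein2 and bak1, so its rise there follows from the filter and is given as a description. EXLB1 fell by 1.54 at 2 h and rose by 4.05 at 10 h (SE 0.26, adjusted p = 7.7e-16). Its arrays read 3.12, 3.16 and 3.15 at 2 h of Pep2 and 8.86, 8.68 and 8.66 at 10 h, below and above the untreated range. The 10 h rise of EXLB1 follows in part from the level filter, as it did with elf18.

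Other wall-loosening genes were lower at 2 h of Pep2. XTH16 fell by 2.62, EXPB1 by 1.91, EXPB3 by 1.83, EXPA15 by 1.84, EXPA8 by 1.60, XTH32 by 1.37 and XTH33 by 1.03. EXPA4 alone among the alpha-expansins was higher, at 1.05, and that call was lost without untreated replicate 1, at 0.92, or without replicate 2 of the 2 h group, at 0.94. Among the TBL members TBL25, TBL28, TBL34, TBL36, TBL37 and TBL39 were lower and none was higher. TBL28 and TBL34 are among the TBL proteins with xylan acetyltransferase activity, and they fell by 1.25 and 1.098. CSLC5, a xyloglucan backbone synthase, fell by 1.12 and was the only CSL member called in any of the 4 wild-type responses. At 10 h XTH26, an enzyme found in root hair walls, rose by 1.37, while TBL38 fell by 1.88.

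**Figure D2:**
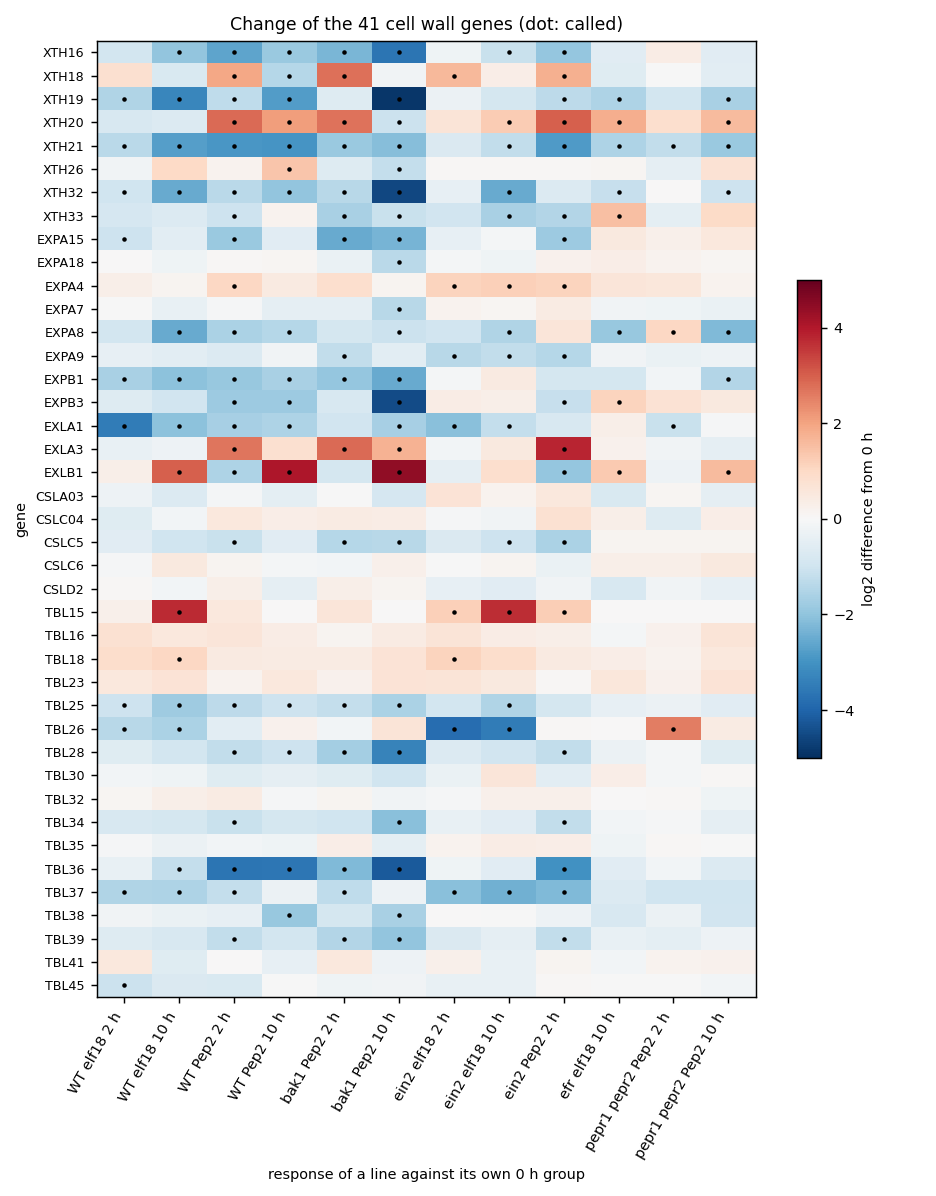
Change in log2 expression from the 0 h arrays of the same line, for each of the 41 genes (rows, by family) in the 12 responses (columns), with colour for size and direction and a mark where the change was called. The wild-type columns are mostly blue, and the bak1 column at 10 h of Pep2 holds the most called decreases, 21.

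The peptides were also compared with each other in wild type at equal times and concentration, a test that does not use the untreated arrays. At 2 h 10 members differed, against 7.91% of all probe sets, and 5 were higher with each peptide. XTH20 was lower with elf18 than with Pep2 by 3.62 on the log2 scale, EXLA3 by 3.03 and EXLA1 by 1.82. The EXLA3 difference follows from the level filter, which it passed through 2 h Pep2 arrays alone. CSLC04 was also lower with elf18, by 1.12, as was XTH18, by 1.14. TBL36 was higher with elf18 by 3.27, EXLB1 by 1.82, XTH16 by 1.72, XTH21 by 1.56 and EXPB3 by 1.20. The XTH18 call was lost without Pep2 replicate 1, at -0.90, that of EXPB3 without elf18 replicate 1, at 0.95, and that of CSLC04 without elf18 replicate 3, at -0.95.

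At 10 h 9 members differed between the peptides, against 15.1% of all probe sets. TBL15 was higher with elf18 by 3.69, TBL36 by 2.43 and TBL38 by 1.53. The TBL15 difference follows from the level filter, which it passed through 10 h elf18 arrays alone. XTH20 was higher with Pep2, with an elf18 minus Pep2 difference of -2.78, and TBL26 with -1.82. TBL37, EXPA8, EXLA3 and EXLB1 were higher with Pep2 by smaller amounts, at differences of -1.27, -1.09, -1.07 and -1.06. EXPA8 lost its call without elf18 replicate 2, at -0.93, and EXLA3 without Pep2 replicate 3, at -0.93. EXLB1 lost it without replicate 1 of either peptide, at -0.89 without the elf18 array and -0.996 without the Pep2 array.

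Between 2 h and 10 h within a peptide, 11 members differed with elf18 and 8 with Pep2, against 12.6% and 19.7% of all probe sets. EXLB1 rose over this interval by 2.71 with elf18 and by 5.59 with Pep2. Both rises follow in part from the level filter, which EXLB1 passed mostly through 10 h arrays. With elf18 TBL15 rose by 3.47, while XTH19, EXPA8, XTH18, XTH32 and XTH21 fell by 1.76, 1.60, 1.56, 1.51 and 1.41. The TBL15 rise follows from the level filter, which it passed through 10 h elf18 arrays alone. With Pep2 XTH18 fell by 3.34 and EXLA3 by 1.85, and EXPA15 rose by 1.27. EXLA3 passed the level filter through 2 h Pep2 arrays alone, so its fall follows from the filter.

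The receptor mutants were set against wild type to compare responses with and without the receptor of the peptide. In efr at 10 h of elf18, 4 members were lower and 4 were higher than at 0 h, against 7.12% and 8.09% of all probe sets. The median member change was -0.10. EXPA8, XTH21, XTH19 and XTH32 fell by 1.90, 1.54, 1.53 and 1.15, and XTH20, XTH33, EXLB1 and EXPB3 rose by 1.81, 1.51, 1.31 and 1.101. XTH20 read 5.96, 5.68 and 5.60 in untreated efr and 7.44, 7.80 and 7.42 at 10 h, with no overlap, whereas wild type at 10 h of elf18 read 5.79, 5.46 and 5.49.

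The efr response at 10 h differed from that of wild type for 15 members, 13 of them higher and 2 lower in efr, against 14.7% and 12.6% of all probe sets. EXLA1 differed by 2.35 (SE 0.41, adjusted p = 6.2e-06) and XTH20 by 2.49 (SE 0.44, adjusted p = 9.7e-06). XTH33 differed by 2.19, EXPB3 by 2.05 and XTH19 by 1.73. TBL15 stayed at 2.12, 2.08 and 2.08 in efr at 10 h, the same as at 0 h within 0.1, and its response differed from wild type by -3.72. TBL15 passed the level filter through the 10 h elf18 arrays of wild type and ein2 alone. Its difference therefore follows from the filter and is given as a description. EXLB1 rose less in efr, by a difference of -1.68. It passed the level filter mostly through 10 h arrays, so this difference is given as a description. The smaller differences, between 1.02 and 1.60, were those of EXPA15, CSLC5, EXPB1, XTH21, TBL25, XTH16, XTH32 and TBL26. TBL26 varied widely in efr, at 6.16, 6.35 and 4.72 untreated and 6.81, 4.52 and 5.90 at 10 h, and its call was lost without any of 6 single arrays. These were wild-type 0 h replicates 1 and 3, wild-type 10 h replicate 1, efr 0 h replicate 3 and efr 10 h replicates 1 and 3, with differences from 1.06 to 1.57.

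In pepr1-1 pepr2-3 at 2 h of Pep2, 2 members were lower and 2 were higher than at 0 h, against 2.11% and 1.42% of all probe sets. XTH21 fell by 1.22 and EXLA1 by 1.11, and TBL26 rose by 2.57 and EXPA8 by 1.04. The EXLA1 call was lost without untreated replicate 2, at -0.98, or treated replicate 1, at -0.90. That of EXPA8 was lost without untreated replicate 2, at 0.82, or without treated replicate 1 or 3, at 0.69 and 1.12. EXPA8 reached 5 on all 3 treated arrays here, and in no other group on all 3, so its rise follows in part from the level filter. TBL26 read 5.31, 4.81 and 4.93 untreated and 7.63, 8.17 and 6.99 at 2 h, with no overlap. In wild type the same gene read 4.65, 4.31 and 4.56 untreated and 4.82, 3.81 and 3.37 at 2 h of Pep2, which overlap.

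The 2 h response of pepr1-1 pepr2-3 differed from wild type for 18 members, 14 higher and 4 lower in the mutant, against 11.3% and 11.8% of all probe sets. The 14 were members that fell in wild type, with the exception of TBL26, whose wild-type change was not called. TBL36 differed by 3.50 (SE 0.32, adjusted p = 1.4e-11) and XTH16 by 2.99 (SE 0.30, adjusted p = 1.7e-10). TBL26 differed by 3.08, EXPA8 by 2.64, EXPB3 by 2.53 and EXPA15 by 2.11. The EXPA8 difference follows in part from the level filter, since the treated double-mutant arrays were among those that carried it past. XTH16 read 9.41, 9.80 and 9.72 in the treated double mutant and 6.93, 6.70 and 6.95 in treated wild type. On the lower side were EXLA3, XTH20, XTH18 and CSLC04, with differences of -2.84, -1.98, -1.94 and -1.16. EXLA3 read 2.90, 2.68 and 2.57 in the double mutant at 2 h, beside 5.34, 6.00 and 5.36 in wild type. EXLA3 passed the level filter through 2 h Pep2 arrays of wild type, ein2 and bak1 alone. Its difference therefore follows from the filter and is given as a description.

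By 10 h of Pep2 the double mutant had 5 members lower and 2 higher than at 0 h, against 7.57% and 7.21% of all probe sets. EXPA8, XTH21, XTH19, EXPB1 and XTH32 fell by 2.22, 1.87, 1.64, 1.45 and 1.05, and EXLB1 and XTH20 rose by 1.59 and 1.58. The XTH32 change was -0.998 without replicate 2 of the treated group, just short of a 2-fold change. Compared with wild type, 7 members were higher and 2 lower in their 10 h response, against 3.83% and 4.78%. TBL36 again differed most, by 2.96, followed by EXPB3 at 2.30, and EXLB1 differed by -2.46. TBL36 read 8.11, 8.20 and 8.29 in the double mutant at 10 h beside 5.24, 5.28 and 5.52 in wild type. EXLB1 read 4.99, 4.49 and 4.60 in the untreated double mutant and 6.22, 6.90 and 5.74 at 10 h, between the untreated arrays and the 8.86, 8.68 and 8.66 of treated wild type. It passed the level filter mostly through 10 h arrays, so its difference is given as a description. The differences of EXLA1, XTH16, XTH19, EXPA15, XTH21 and EXLA3 were 1.48, 1.29, 1.15, 1.104, 1.08 and -1.25. That of XTH19 was lost without wild-type 10 h replicate 3, at 0.89. That of EXPA15 was lost without wild-type 0 h replicate 3, mutant 0 h replicate 2 or mutant 10 h replicate 2 or 3, at 0.93 to 0.99.

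The responses of efr to elf18 and of pepr1-1 pepr2-3 to Pep2 at 10 h share no array, and both lines lack the receptor of the peptide they were given. Of the 8 members called in efr and the 7 called in pepr1-1 pepr2-3, 6 were called in both and in the same direction, which is 75% of the first list and 85.7% of the second. Over all probe sets tested, those called in both lines in the same direction made up 69.3% and 71.3% of the lists. EXPA8, XTH19, XTH21 and XTH32 were lower in both, and EXLB1 and XTH20 were higher in both. The shared calls of EXPA8 and EXLB1 follow in part from the level filter. No member was called in opposite directions. Without untreated arrays at 10 h, elapsed time and a remaining effect of the peptide cannot be told apart in these lines.

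**Figure D3:**
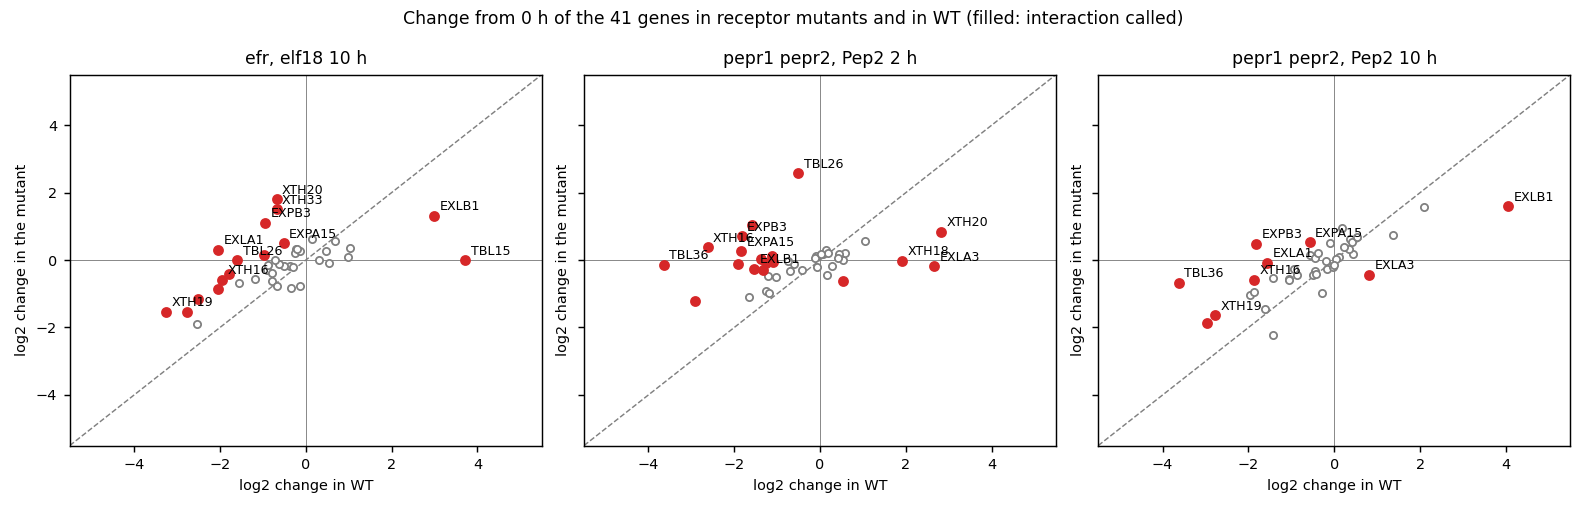
Change from 0 h in log2 expression of the 41 genes in wild type (horizontal axis) and in the receptor mutant (vertical axis), for efr with elf18 at 10 h and pepr1-1 pepr2-3 with Pep2 at 2 h and 10 h. Filled points are genes whose response differed between the lines, the dashed line marks equal responses, and TBL36 sits far above that line in both Pep2 panels, by 3.50 and 2.96.

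In bak1 given Pep2, decreases again outnumbered increases among the wall genes. At 2 h of Pep2 13 members were lower and 3 were higher than at 0 h in bak1, against 9.38% and 10.6% of all probe sets. EXPA15 fell by 2.54, XTH16 by 2.30 and TBL36 by 2.19, and EXLA3, XTH18 and XTH20 rose by 2.82, 2.77 and 2.72. The response differed from wild type for 2 members, against 0.645% of all probe sets. These were TBL36, at 1.45 (SE 0.32, adjusted p = 0.016), and XTH21, at 1.05 (SE 0.27, adjusted p = 0.049). TBL36 read 6.60, 6.50 and 6.56 in treated bak1, above the 5.32, 4.94 and 5.72 of treated wild type. The TBL36 call was lost without wild-type 2 h replicate 2, at 1.26 and an adjusted p of 0.088 in limma, and the XTH21 call was lost without any of 9 single arrays, at 0.92 to 1.08. XTH21 also started lower in untreated bak1, at 4.24 against 5.06 in wild type, and ended near the lowest array value in both lines, which bounds both falls.

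At 10 h of Pep2 21 members were lower and 2 were higher in bak1 than at 0 h, against 16.9% and 15.1% of all probe sets. The median member change was -1.08 where that of all probe sets was -0.02. XTH32 read 11.01, 10.89 and 10.72 untreated and 6.08, 6.70 and 6.20 at 10 h, beside 8.94, 9.19 and 8.66 in wild type at 10 h. Its fall in bak1 was 4.55 (SE 0.18, adjusted p = 5e-23). XTH19 fell by 4.87, EXPB3 by 4.49, TBL36 by 4.19, XTH16 by 3.65 and TBL28 by 3.35. Both root hair expansins among the members, EXPA7 and EXPA18, fell by 1.40 and 1.33, and 7 of the 8 XTH members were lower. The members that rose were EXLB1, by 4.45, and EXLA3, by 1.75.

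The bak1 response at 10 h differed from wild type for 13 members, 12 lower and 1 higher in bak1, against 8.36% and 6.68% of all probe sets. XTH20 read 6.22, 6.38 and 6.54 untreated and 5.04, 5.90 and 4.94 at 10 h in bak1, while wild type at 10 h read 8.79, 8.32 and 7.96. The XTH20 response was thus down in bak1 and up in wild type, a difference of -3.18 (SE 0.44, adjusted p = 3.7e-07). XTH26 did the same, at a difference of -2.54. EXPB3 read 2.70, 3.36 and 2.72 in treated bak1 and 5.73, 6.11 and 5.54 in treated wild type, and its response differed by -2.67. XTH32, TBL28 and XTH19 differed by -2.57, -2.30 and -2.09. EXPA15, XTH16, EXPA18, XTH33, TBL34 and TBL39 followed, with differences between -1.78 and -1.03. XTH18 read 8.68, 8.85 and 8.69 in untreated bak1 and 8.56, 9.01 and 8.17 at 10 h, which overlap, whereas it fell in wild type. Its difference of 1.26 was lost without bak1 10 h replicate 2, at 1.04. All 12 untreated arrays of wild type, efr, pepr1-1 pepr2-3 and bak1 kept XTH32 between 10.64 and 11.02 and EXPB3 between 7.07 and 7.84.

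**Figure D4:**
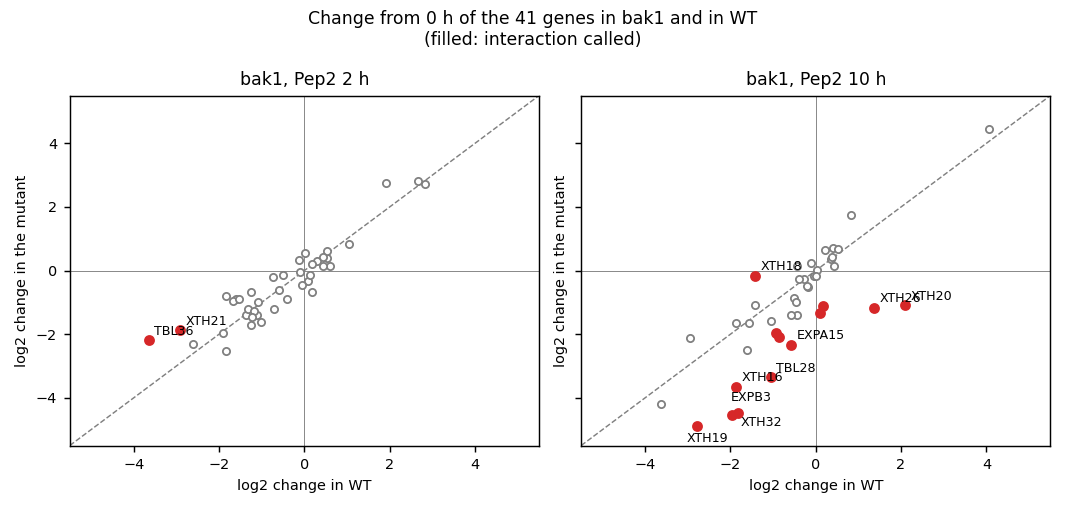
Change from 0 h in log2 expression of the 41 genes in wild type (horizontal axis) and in bak1 (vertical axis) at 2 h and 10 h of Pep2, with the dashed line at equal responses and filled points where the response differed between the lines. The 2 h points lie near the dashed line, while at 10 h 12 genes lie called below it, with XTH20 at 2.097 in wild type and -1.09 in bak1.

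The ein2 line was set apart before any peptide was given. Untreated, 5 members differed from wild type, against 4.53% of all probe sets. XTH26 read 2.204, 2.082 and 2.204 in ein2 and 5.83, 6.13 and 5.75 in wild type, a difference of -3.74 (SE 0.32, adjusted p = 1.1e-11). Across treatments, the 12 ein2 arrays read 2.08 to 2.22 for XTH26 and the 39 other arrays 4.94 to 7.68. The 37 arrays that carried XTH26 past the level filter were all from lines other than ein2, so its separation is given as a description. EXPB1 read 7.03, 6.69 and 6.94 in untreated ein2 and 4.51, 4.99 and 4.55 in wild type, a difference of 2.203. Its 12 ein2 arrays lay between 5.74 and 7.52 and its 39 other arrays between 2.13 and 5.29, again with no overlap. Outside ein2, EXPB1 reached 5 only in pepr1-1 pepr2-3, on 2 untreated arrays and 1 at 2 h of Pep2. Most arrays that carried it past the level filter were thus ein2 arrays, so its separation is given as a description. TBL26 was higher by 2.78 in untreated ein2, EXPA15 by 1.05, and XTH16 differed by -1.07. The EXPA15 call was lost without wild-type replicate 1, at 0.98, or ein2 replicate 3, at 0.93, and the XTH16 call without wild-type replicate 3, at -0.94. No other member separated the ein2 arrays from the rest in this way, the nearest being TBL38, at 8.23 to 8.92 in ein2 and 5.77 to 8.32 elsewhere, which overlap.

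In untreated efr, pepr1-1 pepr2-3 and bak1, 0 of 41 members were called against wild type in limma, beside 0.0824%, 0.0824% and 0.0686% of all probe sets. At an unadjusted p under 0.05 the members numbered 3, 1 and 5. The matching shares of all probe sets are not given here, so nothing is read from these counts.

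The ein2 line responded to both peptides. At 2 h of elf18 4 members were lower and 4 higher, against 7.11% and 8.83% of all probe sets. After 10 h of elf18 11 were lower and 3 higher, against 12.8% and 12.5%, and after 2 h of Pep2 14 were lower and 5 higher, against 10.1% and 10.6%. TBL26 read 7.44, 7.48 and 6.93 untreated, 3.39, 3.66 and 3.33 at 2 h of elf18 and 3.68, 4.00 and 3.67 at 10 h, falls of 3.83 and 3.50 with no overlap. TBL15 rose by 3.70 at 10 h of elf18 in ein2, to 5.73, 5.75 and 6.00, with the wild-type arrays at 5.82, 5.55 and 6.06. With Pep2 EXLA3 rose by 3.81, XTH20 by 2.99 and XTH18 by 1.77, while TBL36 and XTH21 fell by 3.01 and 2.84. The rises of TBL15 and EXLA3 follow from the level filter, since these arrays were among those that carried them past it. At 10 h of elf18 XTH20 was called at 1.27 in ein2, which dropped to 0.82 without the replicate 1 that stood widest from its group and to 0.89 without untreated replicate 1.

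The ein2 responses differed from wild type for 3 members after 2 h of elf18, 7 after 10 h of elf18 and 3 after 2 h of Pep2, against 1.37%, 4.52% and 2.62% of all probe sets. At 10 h of elf18 EXPB1 stayed at 7.21, 7.26 and 7.52 in ein2 and fell to 3.12, 2.55 and 2.24 in wild type, a difference of 2.49 (SE 0.39, adjusted p = 3e-05). XTH19 read 9.22, 9.08 and 9.16 in ein2 at 10 h beside 7.30, 7.12 and 7.15 in wild type, a difference in response of 2.38 (SE 0.29, adjusted p = 5.7e-07). XTH20, XTH21, EXPB3 and EXPA4 differed by 1.95, 1.53, 1.24 and 1.04, and EXLB1 rose less in ein2, by a difference of -2.17. EXLB1 passed the level filter mostly through 10 h arrays, so its difference is given as a description. XTH20 was not called when the groups compared were fitted alone, at the same difference and an adjusted p of 0.082 in limma. Without the wide replicate 1 of ein2 at 10 h the number of members that differed was 9, with no share of all probe sets given. XTH18 varied most in that group, at 10.06, 7.93 and 7.83, and was not called there. EXPA4 lost its call without wild-type 0 h replicate 2, at 0.94, ein2 0 h replicate 1, at 0.95, or wild-type 10 h replicate 3, at 0.97.

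At 2 h of elf18 the differing responses were those of EXPB1, XTH19 and TBL26, at 1.50, 1.21 and -2.44. TBL26 started higher in untreated ein2, at 7.29 against 4.51 in wild type. The wild-type mean was 3.12 after 2 h of elf18, near the ein2 arrays given above. Leaving out single arrays ended the EXPB1 call in 6 cases, the XTH19 call in 4 and the TBL26 call in 10, of the 12 arrays involved, with values of 1.29 to 1.57, 1.07 to 1.11 and -2.54 to -2.30. At 2 h of Pep2 they were EXPA8, EXLA3 and TBL37, at 2.22, 1.15 and -1.01. The EXPA8 call was lost without ein2 0 h replicate 1, at 1.78, that of EXLA3 in 9 cases, at 0.94 to 1.15, and that of TBL37 in 4, at -0.93 to -0.87.

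**Figure D5:**
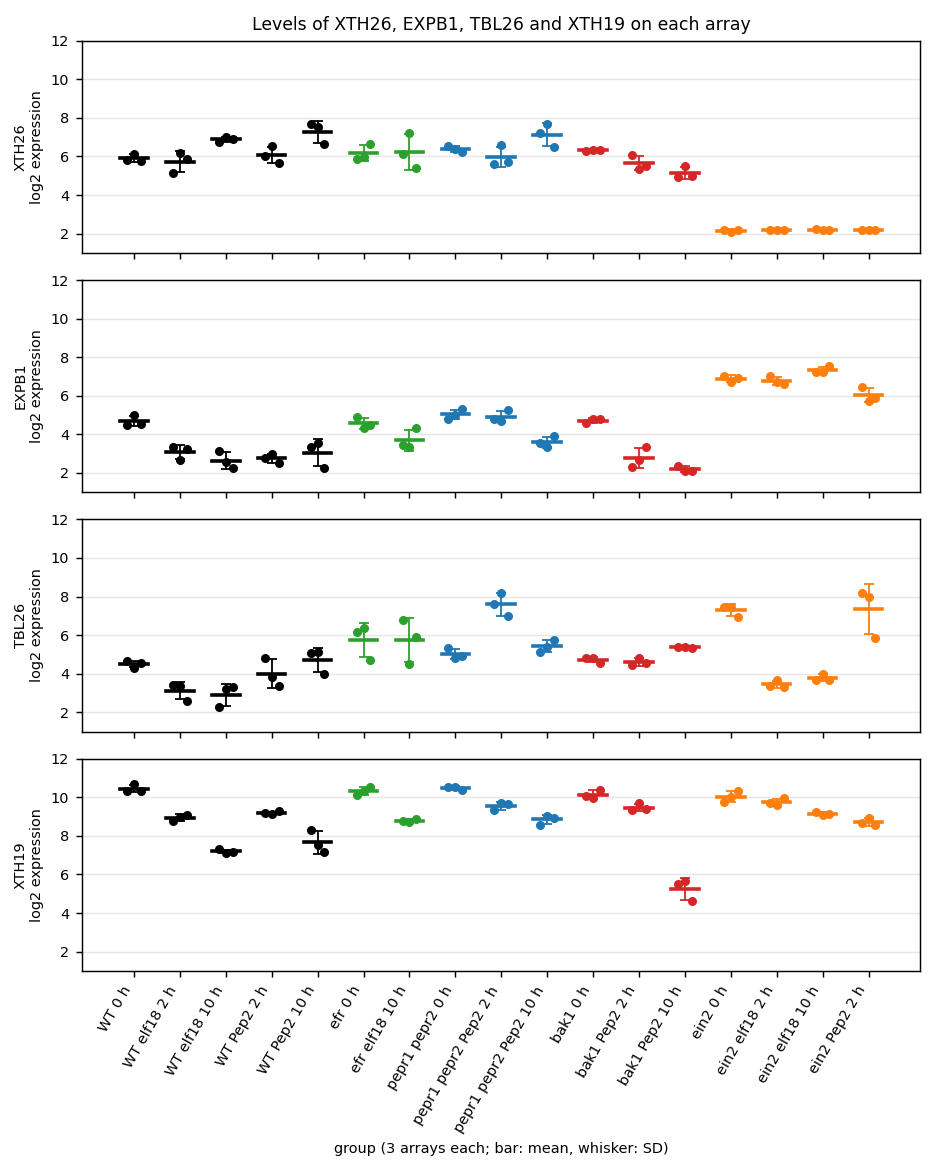
Log2 expression (vertical axis) of XTH26, EXPB1, TBL26 and XTH19 on each of the 51 arrays by group (horizontal axis), with 3 arrays a group, bars for means and whiskers for SD. XTH26 lies between 2.08 and 2.22 in all 12 ein2 arrays, and EXPB1 is higher there, between 5.74 and 7.52, than on any other array. XTH26 passed the level filter only, and EXPB1 mostly, through the lines where they read high.

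Across the 4 wild-type responses 13 of the 41 members (31.7%) were called in none, where 62% of all probe sets were called in none. They included the CSL members CSLA03, CSLC04, CSLC6 and CSLD2, and the root hair expansins EXPA7 and EXPA18. The XTH family had the lowest medians of the larger families, namely -0.87 (2 h elf18), -1.36 (10 h elf18), -1.14 (2 h Pep2) and -1.65 (10 h Pep2). The TBL family's medians in the same order were -0.19, -0.62, -0.51 and -0.28.

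Genes of these families that the annotation names otherwise were read from a separate list, of which 3 were tested. EXGT-A3, which is XTH27, fell in wild type by 1.80 and then 1.99 under elf18 and by 1.30 after 2 h of Pep2, whereas its 10 h Pep2 change of -0.70 did not pass. ATPMEPCRB, a pectin methylesterase that demethylates pectin, rose by 2.30 and 4.03 with elf18 and by 3.48 and 2.71 with Pep2, and was called higher in all 4. Its rise was 1.73 in efr at 10 h and 2.87 in pepr1-1 pepr2-3 at 10 h. AT2G31110, a TBL gene, was not called in any wild-type response.

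Of lists of other wall genes, few genes were named and tested. THE1, a receptor kinase that monitors the wall during growth, fell in all 4 wild-type responses, by 2.01 and 2.15 with elf18 and by 2.23 and 1.28 with Pep2, and its response differed in efr by 1.54 and in pepr1-1 pepr2-3 at 2 h by 1.59. FER, a related receptor kinase, COB, which orients cellulose deposition, and GUT2, a xylan synthase, were called in none of the 4. HAT2, an auxin-induced transcription factor gene, rose at 2 h by 1.51 with elf18 and 1.06 with Pep2. ARL, which promotes cell expansion, was lower in untreated ein2 than in wild type by 6.06 on the log2 scale (adjusted p = 1.3e-10). In ein2 at 10 h of elf18, the group with the widest array, ARL ranged from 4.76 to 9.93, with an SD of 2.79.

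Markers of organs were read because whole seedlings were sampled. The shoot gene LHCB4.2, which encodes a light-harvesting protein, ranged from 8.98 to 14.33 over the arrays and fell at 10 h, by 4.56 with elf18 and 3.68 with Pep2 in wild type, 2.21 in ein2 with elf18, 2.98 in efr, 3.42 in pepr1-1 pepr2-3 and 3.94 in bak1. The other shoot marker tested, RCA, which encodes rubisco activase, ranged from 13.79 to 15.21 and fell by 1.096 at 10 h of elf18 in wild type. The root marker PYK10 ranged from 13.75 to 14.92 and was called in no response. The part of shoot and root shares in the changes of the wall genes was not tested.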

How the data were processed

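The authors deposited log2 expression values for 22810 probe sets on 51 arrays, made with GCRMA per the submitters' processing notes. The GCRMA version, probe-level settings and genome build are not given in the sources used here. GCRMA subtracts a sequence-dependent background, so weak probe sets collect at the lowest value and changes near it are bounded. The deposited table was used as it stood. Control probe sets, 64 in number, were left out, and 14568 probe sets with a log2 value of at least 5 on at least 3 arrays were tested. Of these 7828 had 1 gene in the platform annotation. All 41 members matched a RefSeq locus and symbol. The array platform and the 3 replicates a group limit the precision.

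With limma 3.58.1 (R 4.3.3), 1 model with a mean per group was fitted to all arrays (34 residual degrees of freedom), and p-values were adjusted within each contrast by Benjamini-Hochberg. Contrasts were each response against its own 0 h, each mutant against wild type at 0 h, mutant minus wild-type responses, elf18 minus Pep2, and 10 h minus 2 h. The fit was tested on simulated data. Members and lists were chosen with earlier results of these data known. Named genes are the 4 genes EXLA1, EXPA15, XTH21 and TBL36 on every array, the called members that changed most in each wild-type response and receptor comparison, and further members by size of change. Lists tested were the same families under other names, wall synthesis and sensor genes, growth regulators and organ markers. For the lists of xyloglucan trimming, pectin, callose, extensin and secondary wall genes no probe set was tested under the names searched.

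Whether replicate numbers pair samples was checked from deviations from group means. Same-numbered arrays correlated at 0.0785 on average and different-numbered ones at -0.0393, and all pairs exceeded 0.1 in 3 of the contrasts. Alternatives covered leaving out each array, the level filter, the fold minimum, quantile or median scaling, an intensity trend, the replicate block and separate fits. No sequences are shown.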

Additional observations from a re-analysis of the deposited data

Results flagged for a closer look

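The results gathered here are members whose response from 0 h differed between a mutant and wild type, by limma's test of the difference itself, at an adjusted p under 0.05 and a difference of at least 2-fold. At most the 6 largest differences in each direction are given for a comparison, of 15 in efr, 18 and 9 in pepr1-1 pepr2-3 at 2 h and 10 h and 13 in bak1 at 10 h. Each value is the mutant's log2 change minus that of wild type, and comparisons with wild type share its 0 h arrays. In ein2 at 2 h of elf18 the response was higher for EXPB1 and XTH19, by 1.50 and 1.21, and lower for TBL26, at -2.44. The adjusted p-values ran from 0.02 to 0.039. In ein2 at 10 h of elf18 the response was higher for EXPB1, XTH19, XTH20, XTH21, EXPB3 and EXPA4, by 2.49, 2.38, 1.95, 1.53, 1.24 and 1.04, and lower for EXLB1, at -2.17. Their adjusted p-values ranged from 5.7e-07 to 0.0036. In ein2 at 2 h of Pep2 the response was higher for EXPA8 and EXLA3, by 2.22 and 1.15, and lower for TBL37, at -1.01. The adjusted p-values ran from 0.0076 to 0.049. In efr at 10 h of elf18 the response was highest relative to wild type for XTH20, EXLA1, XTH33, EXPB3, XTH19 and TBL26, by 2.49, 2.35, 2.19, 2.05, 1.73 and 1.60, and lower for TBL15 and EXLB1, at -3.72 and -1.68. Their adjusted p-values ranged from 1.1e-09 to 0.038. In pepr1-1 pepr2-3 at 2 h of Pep2 the response was highest relative to wild type for TBL36, TBL26, XTH16, EXPA8, EXPB3 and EXPA15, by 3.50, 3.08, 2.99, 2.64, 2.53 and 2.11, and lower for EXLA3, XTH20, XTH18 and CSLC04, at -2.84, -1.98, -1.94 and -1.16. The adjusted p-values ran from 1.4e-11 to 0.00031. In pepr1-1 pepr2-3 at 10 h of Pep2 the response was highest relative to wild type for TBL36, EXPB3, EXLA1, XTH16, XTH19 and EXPA15, by 2.96, 2.30, 1.48, 1.29, 1.15 and 1.104, and lower for EXLB1 and EXLA3, at -2.46 and -1.25. Their adjusted p-values ranged from 1.9e-08 to 0.01. In bak1 at 2 h of Pep2 the response was higher for TBL36 and XTH21, by 1.45 and 1.05. The adjusted p-values ran from 0.016 to 0.049. In bak1 at 10 h of Pep2 the response was higher for XTH18, by 1.26, and lowest for XTH20, EXPB3, XTH32, XTH26, TBL28 and XTH19, at -3.18, -2.67, -2.57, -2.54, -2.30 and -2.09. Their adjusted p-values ranged from 2.4e-10 to 0.016. Calls that depended on single arrays are named with the results above. TBL15, EXLA3, XTH21, EXPB1 and EXLB1 passed the level filter only or mostly through groups where they read high, as given above. EXPA8 did so in part, through the pepr1-1 pepr2-3 arrays at 2 h of Pep2. Their differences here are therefore descriptions.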

How the results depend on the processing

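The direction of all 188 named values was kept under the alternatives run, of which the filter at log2 7 retained 142 values. Only quantile or median scaling and leaving out arrays could change a direction. The other settings leave the differences between group means as they are, so a kept direction there was fixed in advance. Adding the replicate block, which fits the replicate number as a term, kept all 188 calls and moved no count of called members by more than 1.5 times. The count for wild type at 2 h of elf18 under the replicate block was 10, as in the fit without it. In 3 contrasts all same-numbered pairs correlated above 0.1, but the labels do not tie the numbers together.

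Without the level filter 6 named calls were lost, with the intensity trend 2, with only the groups compared 11 and with median centring 1, and with quantile normalisation none of the 188. Counts of members called moved by more than 1.5 times as follows. Shares of all probe sets in these settings are not given here, so the counts show only movement from the main fit. With no filter 1 member differed in response in ein2 at 2 h of elf18 and 1 in bak1 at 2 h of Pep2. With the filter at log2 7, where 30 members remained, 5 were called in efr and 2 in pepr1-1 pepr2-3 at 2 h, and 1 differed in response in ein2 and 1 in bak1 at 2 h of Pep2. The intensity trend left 1 in bak1 at 2 h. Fitting only the groups compared gave 2 in pepr1-1 pepr2-3 at 2 h, 0 in the ein2 response difference at 2 h of Pep2 and 1 in that of bak1 at 2 h. Quantile normalisation gave 5 in the ein2 response difference at 2 h of elf18. The cause of these moves was not tested. The filter at log2 7 used fewer probe sets and the separate fits used fewer arrays.

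With no fold minimum the counts in wild type were 25 after 2 h and 29 after 10 h with elf18, and 29 after 10 h with Pep2, where 48.8%, 66.2% and 52.9% of all probe sets passed. They were 19 and then 27 in ein2 under elf18, 19 in efr, 10 and 22 in pepr1-1 pepr2-3, and 29 in bak1 at 2 h, beside 50.1%, 63.9%, 49.6%, 23.7%, 49.5% and 53.7%. Untreated ein2 had 8, beside 14.9%. The response differences numbered 5, 11 and 5 in ein2 and 20 in bak1 at 10 h, beside 2.02%, 11.8%, 6.66% and 37%. The peptides differed for 19 at 2 h and 19 at 10 h, and the times for 18 with elf18 and 20 with Pep2, beside 24.4%, 49.5%, 47% and 55.5%.

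Leaving out each array in turn kept 1332 of 1416 named calls. Counts ran from 0 to 3 for the ein2 response differences at 2 h of either peptide, from 0 to 2 for that of bak1 at 2 h and from 2 to 6 for pepr1-1 pepr2-3 at 2 h. Shares of all probe sets in these fits are not given here. The mean over probe sets of a gene could not be tried, since each member has 1. Signal near 2.08 limits the size of falls in XTH21, EXPA8, EXPB1 and XTH26.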
